A study of Homo sapiens with 6 samples.

Results

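Pancreatic and foregut lineage transcription factors were examined in L3.6pl cells sorted for surface L1CAM. The 8 factors were taken by symbol as regulators of the classical, glandular subtype of pancreatic cancer (GATA6, HNF4A, HNF4G, FOXA1, FOXA2, SOX9, ELF3 and KLF5), and 5 of the 8 had a row among the 19469 genes of the count table. HNF4A, HNF4G and FOXA2 had no row in the table used here and were not analysed. L3.6pl is an established human pancreatic cancer line, described in the labels as an adenosquamous carcinoma, and the cells received no treatment. FACS with an antibody against L1CAM, an adhesion molecule of the immunoglobulin family, split the culture into L1CAM-positive (L1high) and L1CAM-negative (L1low) cells, and dead cells were gated out with 7AAD. RNA-seq was performed on 3 L1high and 3 L1low libraries, and the comparison asked how the transcriptomes of both populations differ. All values therefore describe one cell line, and the labels do not say whether the replicates came from separate cultures or sorts. The methods of the study speak of independent repeats for its experiments in general, without naming these libraries, so the p-values measure the spread between these libraries, which may be technical.

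During development, the gut tube is patterned by transcription factors that later keep epithelial identity. FOXA factors open compacted chromatin in foregut endoderm, GATA6 and HNF4A drive pancreatic and gut epithelial programs, and SOX9 marks pancreatic progenitors and, in the adult organ, ductal and centroacinar cells. ELF3 is an ETS factor restricted to epithelia, and KLF5 is a zinc-finger factor of proliferating gut and basal epithelium. In pancreatic cancer, the classical subtype is known for high GATA6 and gland-forming histology, whereas the basal-like or squamous subtype is known for low GATA6 and for TP63.

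Counts assigned to genes ran from 16334610 to 21064685 per library. Levels are given as CPM (counts relative to the library total, corrected by the TMM factors of edgeR), and positive log2 fold changes stand for genes higher in L1low cells. All 6 libraries entered the quasi-likelihood test of edgeR, p-values were adjusted by the Benjamini-Hochberg method across 19467 genes, and a gene was called when its adjusted p was under 0.05. The fit was repeated over 5 libraries, since the supplementary table of the study leaves out L1high replicate 3 without giving a reason. The sorting marker L1CAM was lower in L1low cells, from 81.1 ± 10.2 CPM (SD, n = 3) to 20.5 ± 3.01 (SD, n = 3). Of the ductal epithelial markers listed, 7 of 8 had a row, KRT7, KRT8, KRT18 and KRT19 among them. The acinar marker CEL rose in L1low cells and was the 1 of 8 acinar markers with a row. No endocrine marker of 7 had a row. Of 9 fibroblast markers, LUM, ACTA2 and COL3A1 had a row and summed to between 86.7 and 98.5 CPM in L1high libraries and between 140 and 160 in L1low libraries, mostly through LUM, which rose. The fibroblast markers DCN, PDGFRA, PDGFRB, COL1A2, FAP and THY1 had no row. Of 7 immune markers CD68 had a row (from 8.42 to 8.81 CPM in L1high and from 9.37 to 11.3 in L1low libraries) and of 4 endothelial markers PECAM1 (from 11.3 to 11.9 and from 13.2 to 14.7), and neither was called. The part of these markers in the results below was not tested.

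SOX9 fell and ELF3 rose in L1low cells, while KLF5, FOXA1 and GATA6 did not pass the test. SOX9 dropped to 50.1% of its L1high level, and ELF3 rose 1.32-fold. Thus 1 of the 5 factors was called lower and 1 was called higher, where 3.37% of all genes tested were called lower and 4.58% higher (7.95% in either direction). The same calls were made over the 5 libraries, where 3.15% of genes were called lower and 4.41% higher (7.57% in either direction). With the replicate number as a block, 2363 genes were called in all in place of 1548, and SOX9 and ELF3 were again the factors called. The median log2 fold change of the 5 factors was 0.02, beside -0.01 over all genes tested. In bulk libraries, fewer cells with a transcript and less transcript per cell cannot be told apart.

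SOX9 (ENSG00000125398, chromosome 17 from 72121020 to 72126416, plus strand, GRCh38), a protein-coding gene of the high-mobility-group family, stood at 29.9, 31.4 and 27.9 CPM in L1high replicates 1, 2 and 3. In L1low replicates 1, 2 and 3 it stood at 13.6, 17.3 and 13.8 CPM. Every L1low library lay below every L1high library, and L1low replicate 2 was the highest of its group. The log2 fold change was -0.998 (standard error 0.11, 95% interval from -1.24 to -0.75, adjusted p = 0.00023 in the edgeR quasi-likelihood fit, Benjamini-Hochberg). Over the 5 libraries it was -1.03 (adjusted p = 0.00025 in the same edgeR test). The call rested on between 244 and 644 counts per library, and it held when any one library was left out, with log2 fold changes from -1.12 to -0.94. No antisense partner of SOX9 had a row in the table.

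ELF3 (ENSG00000163435, chromosome 1 from 202007945 to 202017183, plus strand) had 275, 235 and 278 CPM in the L1high libraries (replicates 1, 2 and 3), against 327, 354 and 361 CPM in the L1low libraries. Both groups stood apart, and L1high replicate 2 was the lowest library of all. The log2 fold change was 0.40 (standard error 0.08, 95% interval from 0.23 to 0.57, adjusted p = 0.0083 in the edgeR quasi-likelihood fit, Benjamini-Hochberg). Over the 5 libraries it was 0.45 (adjusted p = 0.0066 in the same edgeR test). The call of ELF3 depended on L1low replicate 2, since without that library the log2 fold change of 0.39 had an adjusted p of 0.061 in the edgeR test. That fit called fewer genes in general (627 in place of 1548). With L1high replicate 2 left out, the log2 fold change was 0.33 (adjusted p = 0.015 in the edgeR test).

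The ELF3 locus holds overlapping genes that were counted separately. ENSG00000249007, a long non-coding RNA gene annotated on the same strand inside ELF3 (chromosome 1 from 202011370 to 202015657), rose (log2 fold change 0.37, standard error 0.08), with L1high libraries at 92.2 ± 10.5 CPM and L1low libraries at 119 ± 1.59 (SD, n = 3 each). How the authors' counting treated reads shared by both genes is not given in the sources used here. The rise of ENSG00000249007 may thus not be separate from that of ELF3. ENSG00000249007 lost its call without L1low replicate 2 (adjusted p = 0.094 in the edgeR test). ELF3-AS1, which runs on the opposite strand across the 5′ side of ELF3 (chromosome 1 from 201995696 to 202010463), had 75.8 ± 5.96 CPM in L1high and 78.1 ± 4.08 CPM in L1low libraries (SD, n = 3 each). The fitted change of 0.04 on the log2 scale (95% interval from -0.13 to 0.22) was not called, and the strand setting of the authors' counting is not given in the sources used here, so reads of both strands may not have been told apart.

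The bases just upstream of a RefSeq transcript start are shown for ELF3, as the factor that rose, and for FOXA1, as a factor that did not pass the test, because the factors of this group bind each other's regulatory regions in epithelia. RefSeq promoter entries (GRCh38.p14) matched 5 of the 8 factors (ELF3, KLF5, FOXA1, GATA6 and HNF4A). Both windows hold the 250 bases before the start, read 5′ to 3′ on the strand of the gene, with ELF3 at chr1:202010337-202010586 on the plus strand and FOXA1 at chr14:37595250-37595499 on the minus strand. The windows lie inside the annotated gene spans, since ELF3 begins at 202007945 and FOXA1, on the minus strand, at 37596059. These transcript starts are thus not the outermost 5′ ends of the annotated genes. Capitals mark matches to the motifs searched.
ELF3: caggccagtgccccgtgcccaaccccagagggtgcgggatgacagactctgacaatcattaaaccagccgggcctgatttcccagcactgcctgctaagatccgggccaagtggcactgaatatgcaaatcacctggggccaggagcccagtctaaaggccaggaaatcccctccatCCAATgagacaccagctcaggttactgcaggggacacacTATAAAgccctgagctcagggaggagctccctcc
FOXA1: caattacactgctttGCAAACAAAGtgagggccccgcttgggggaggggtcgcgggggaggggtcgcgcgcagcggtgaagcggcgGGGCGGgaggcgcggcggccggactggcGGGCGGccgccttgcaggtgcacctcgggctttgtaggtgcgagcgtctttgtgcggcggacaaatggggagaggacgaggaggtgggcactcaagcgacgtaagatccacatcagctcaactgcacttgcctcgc

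The ELF3 window held a TATA box (TATAAA, searched on the gene's strand) that begins at -34 and a CCAAT box (CCAAT, both strands) that begins at -73, counted in bases from the transcript start. Of all 35116 promoter windows of this length, 6.80% held the TATA box and 32.0% the CCAAT box. The FOXA1 window held neither, but it held 2 GC boxes (GGGCGG, both strands, in 42.6% of windows), a FOXA core (TGTTTGC, both strands, in 3.23% of windows) and a SOX site (AACAAAG, both strands, in 4.50% of windows). The FOXA core, printed as its reverse complement, and the SOX site overlap in 1 capitalised run. Further motifs were searched on both strands and had no match in either window. These were a second FOXA core (TGTTTAC, in 2.98% of all windows) and the ETS site of the ELF group (AGGAAG, in 28.7%). The other motifs were a GATA site (AGATAA, in 9.17%), an AP-1 site (TGANTCA, in 6.57%) and a TEAD site (GGAATG, in 11.9%). The windows were 58.4% (ELF3) and 67.2% (FOXA1) G or C, against a median of 58.0% over all windows. These matches describe letters and were not tested against the counts.

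**Figure D1:**
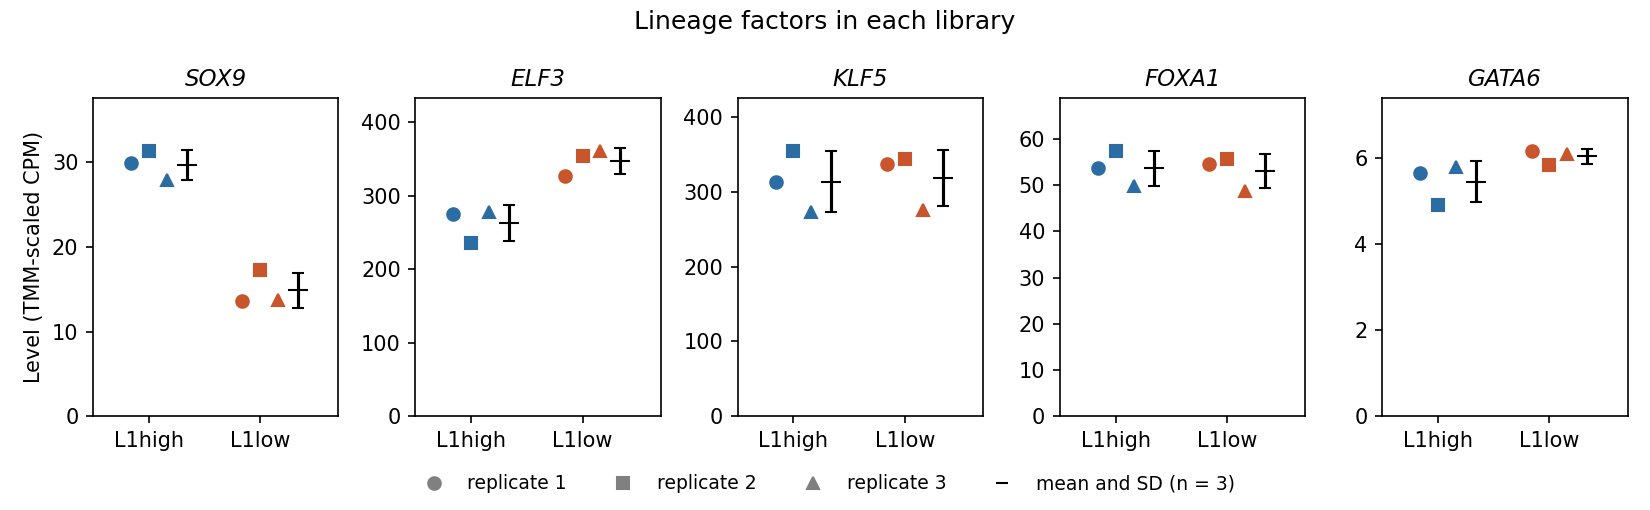
Level of each lineage factor in TMM-scaled CPM (vertical axis, from 0, a separate scale for each gene) in L1high (blue) and L1low (orange) libraries, with symbols for replicates 1, 2 and 3 and black marks for the mean and SD (n = 3). SOX9 is lower in all 3 L1low libraries and ELF3 is higher, whereas the KLF5 and FOXA1 values of both groups overlap and GATA6 stays between 4.92 and 6.16 CPM.

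KLF5 (ENSG00000102554, chromosome 13 from 73054976 to 73077541, plus strand) stood at 313, 354 and 274 CPM in the L1high libraries (replicates 1, 2 and 3), against 337, 344 and 276 CPM in the L1low libraries. The groups overlapped over nearly their whole range. The fitted log2 difference came to 0.02 ± 0.10 (standard error) and was not called (adjusted p = 0.92 in the edgeR quasi-likelihood fit, Benjamini-Hochberg). Without the replicate number as a block, the 95% interval ran from -0.20 to 0.25, so changes within it remain compatible with these libraries. Its sign turned with single libraries, to -0.06 over the 5 libraries.

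FOXA1 (ENSG00000129514, chromosome 14 from 37589552 to 37596059, minus strand) gave 53.8, 57.4 and 49.8 CPM in the L1high libraries (replicates 1, 2 and 3), against 54.5, 55.7 and 48.8 CPM in the L1low libraries. These ranges overlapped as well. The log2 fold change was -0.02 (standard error 0.08, 95% interval from -0.20 to 0.17, adjusted p = 0.92 in the edgeR test). Its sign turned with single libraries, to 0.03 when L1high replicate 2 was left out and to 0.05 when L1low replicate 3 was. Between libraries, FOXA1 and KLF5 shared a pattern, since replicate 3 was the lowest library for both genes in both groups. Over 12712 genes, the deviations of L1high replicate 3 and L1low replicate 3 also correlated (0.43). A shared deviation in replicate 3 is thus not particular to these factors. TTC6, whose annotation overlaps the 5′ end of FOXA1 on the opposite strand, held between 22 and 43 counts per library and was not called (log2 fold change -0.21, standard error 0.25).

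GATA6 (ENSG00000141448, chromosome 18 from 22169589 to 22202528, plus strand), the factor by which the classical subtype is best known, was the lowest of the 5 factors. It had 5.66, 4.92 and 5.79 CPM in the L1high libraries (replicates 1, 2 and 3), against 6.16, 5.85 and 6.10 CPM in the L1low libraries. Every L1low library lay above every L1high library, but the nearest libraries of both groups differed little (5.79 and 5.85 CPM). Its log2 fold change of 0.15, which was not called, had the widest interval (standard error 0.14, 95% interval from -0.15 to 0.45, adjusted p = 0.56 in the edgeR quasi-likelihood fit, Benjamini-Hochberg), with 95 to 120 counts per library behind it. ENSG00000266283, an antisense long non-coding RNA gene at the 3′ end of GATA6, held between 22 and 43 counts and was not called (log2 fold change -0.05, standard error 0.29). In all, groups did not overlap for SOX9 (lower) and for ELF3 and GATA6 (higher), where 13.7% of all genes did not overlap in the lower direction and 15.2% in the higher (28.8% in either).

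**Figure D2:**
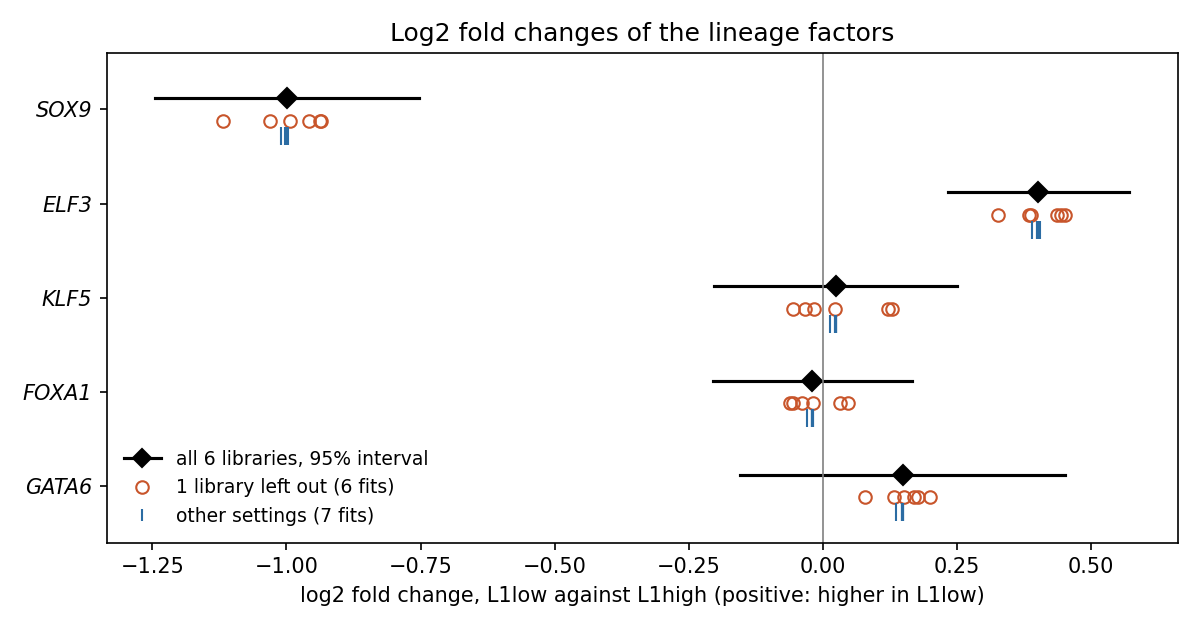
Log2 fold change of each lineage factor, L1low against L1high (horizontal axis, positive values are higher in L1low), with diamonds and lines for the fit over all 6 libraries and its 95% interval, open circles for the 6 fits that each left out 1 library, and ticks for the 7 other settings. SOX9 stays between -1.12 and -0.94 and ELF3 between 0.33 and 0.45, while the intervals of KLF5, FOXA1 and GATA6 cross 0.

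Levels of different genes were compared per length, as CPM per kb of annotated exon (GENCODE release 44, all exons of a gene merged). In both groups the order was KLF5, ELF3, FOXA1, SOX9 and GATA6. On this scale KLF5 had 85.2 ± 11 CPM per kb in L1high cells and 86.7 ± 10.2 in L1low cells (SD, n = 3 each), above 95.8% of the genes of the table by its mean over the 6 libraries. ELF3 had 36.5 ± 3.34 in L1high and 48.3 ± 2.49 in L1low cells, above 91.3% of genes, although its merged exons of 7186 bases include many transcript forms, which lowers a level per kb. FOXA1 (12.2 ± 0.857 and 12.01 ± 0.830) was above 71.7% of genes. SOX9 moved from 7.56 ± 0.441 to 3.79 ± 0.527 CPM per kb, and GATA6 stood at 1.44 ± 0.124 and 1.59 ± 0.0437, above 22.2% of genes. On this scale each factor exceeded the next in the order in all 6 libraries, and the closest pair in any library was KLF5 and ELF3, with a log2 ratio of 0.58 in L1low replicate 3. The order of KLF5 and ELF3 rests on the exon length taken for ELF3, and without division by length ELF3 was at 347 CPM and KLF5 at 319 in L1low cells.

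**Figure D3:**
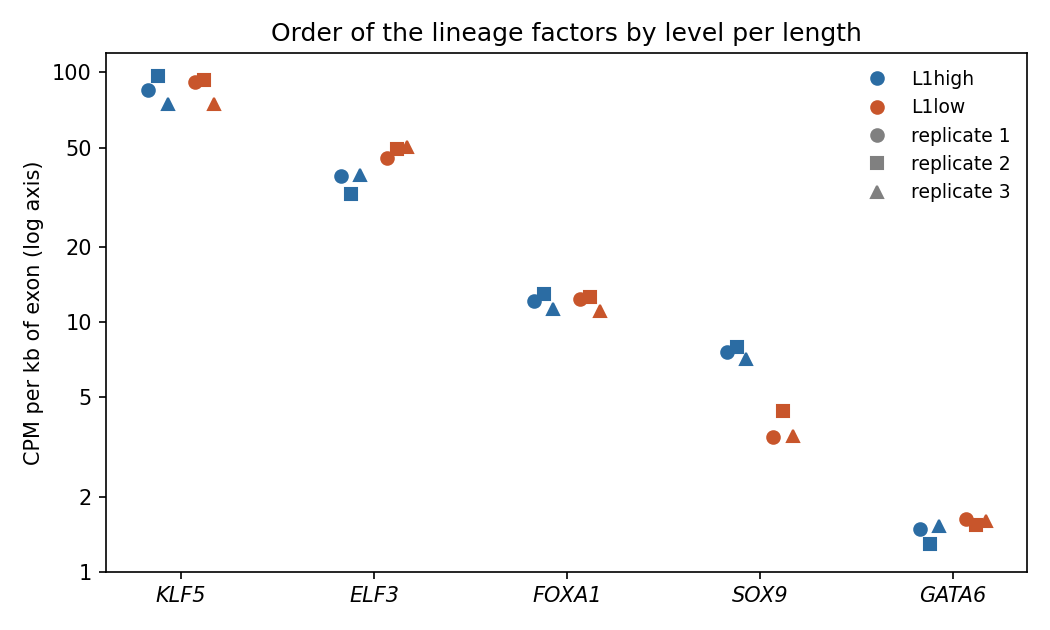
Level per length of the 5 lineage factors, in CPM per kb of merged exon on a log axis, with one symbol per library (blue L1high, orange L1low). The order KLF5, ELF3, FOXA1, SOX9, GATA6 is the same in all 6 libraries, and SOX9 moves away from FOXA1 and towards GATA6 in L1low cells.

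Ratios within a library do not depend on how libraries are scaled, and the following ones restate the levels above on that scale. The ratio of ELF3 to SOX9 per kb was 5.04, 4.10 and 5.45 in the L1high libraries (replicates 1, 2 and 3), against 13.1, 11.2 and 14.3 in the L1low libraries. FOXA1 exceeded SOX9 1.61-fold in L1high cells and 3.19-fold in L1low cells. The ratio of KLF5 to FOXA1 was 6.99 ± 0.412 in L1high cells and 7.20 ± 0.369 in L1low cells (SD, n = 3 each), a difference smaller than the spread between replicates. Of the summed level per kb of the 5 factors, SOX9 made up 5.29% in L1high and 2.48% in L1low cells, and ELF3 25.7% and 31.8%.

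The genes whose log2 CPM followed each factor most closely over the 6 libraries were sought where the average log2 CPM was 3 or more. For SOX9 these were NID2 (Pearson r = 0.997), DNAJC12 (r = 0.996) and RPRM (r = 0.996), and all 3 were called lower in L1low cells, NID2 with a log2 fold change of -0.83. For ELF3 they were SSH3 (r = 0.999), ENSG00000274021 (r = 0.998) and RABGAP1 (r = 0.998), of which SSH3 and ENSG00000274021 were called higher. KLF5 was followed by FOXN2, RBM27 and ZDHHC20, FOXA1 by DNAJB14, CDKN2B and THUMPD1, and GATA6 by KLC4, P2RX4 and ARPC4-TTLL3, and none of these 9 was called. With 6 libraries and 12711 or 12712 genes compared, such high correlations are a description only. The genes were picked over the same libraries, with the difference between groups included. Their calls are therefore tied to those of the factors and add no separate evidence.

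Relatives of the factors from the same families (GATA, FOXA, SOX, KLF and ELF or related ETS genes) were read from a list. It was written from general knowledge, though with earlier results of these data known, and 26 of its 37 genes had a row. In L1low cells 4 of the 26 rose and none was called lower in edgeR's quasi-likelihood test, with a median log2 fold change of 0.09. At an unadjusted p under 0.05, 8 were higher and 1 was lower, beside 2318 and 2223 of the 19467 genes tested. In the same test 4.58% of all genes were called higher and 3.37% lower. With the replicate number as a block 6 relatives were called higher and 1 lower, where over all genes that block called 1220 higher and 1143 lower. By DESeq2, with scaling by library size alone and without L1low replicate 3, 1 relative was also called lower. Those fits called 707, 726 and 459 genes lower in all, in that order. The 4 that rose in the unblocked edgeR fit were KLF15 (log2 fold change 0.66), KLF7 (0.62), ELF4 (0.51) and SOX12 (0.37). KLF7, a widely expressed Krüppel-like factor, went from 22.6 ± 1.72 CPM to 34.6 ± 0.460 (SD, n = 3 each) and was called in every fit. KLF15 lost its call in 4 of the 6 fits that each left out 1 library (without replicate 1 or 2 of either group). ELF4 and SOX12 each lost theirs when L1high replicate 1 or L1low replicate 2 was left out. In both of these fits 1 relative was called higher, where 425 and 393 genes in all were, in place of 891.

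Among 36 other pancreatic and gut factors, 17 had a row, and their median log2 fold change was -0.06. None was called higher by edgeR's quasi-likelihood test, where 4.58% of all genes tested were. At an unadjusted p under 0.05, 1 of the 17 was higher, beside 2318 of the 19467 genes tested. DESeq2, the replicate block and the fits without L1high replicate 2 or L1low replicate 3 each called 1 higher. Over all genes these fits called 883, 1220, 709 and 716 higher, in that order. PDX1, PTF1A and ONECUT1, core factors of pancreatic development, had no row in the table used here.

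Genes that mark the classical subtype were mostly without a row, since 6 of 24 had one. ANXA10, an annexin of gastric epithelium, rose to 10.0 ± 1.25 CPM from 5.06 ± 0.914 (SD, n = 3 each, log2 fold change 0.97, standard error 0.16). ST6GALNAC1, a sialyltransferase that caps mucin glycans, fell to 10.3 ± 1.59 CPM from 20.1 ± 1.32 (SD, n = 3 each, log2 fold change -0.96, standard error 0.13). The median of the 6 genes was -0.25, and the replicate block called 2 of them lower in place of 1. Over all genes that block called 1143 lower in place of 657. Of 25 basal-like subtype genes 18 had a row, 5 rose and 4 fell, with a median of 0.03. Over all genes tested, to be set beside both lists, 4.58% were called higher and 3.37% lower (7.95% in either direction). The number of basal-like genes that rose was 3 without L1high replicate 1, without L1low replicate 1 or without L1low replicate 2. Over all genes these fits called 425, 703 and 393 higher, in that order, in place of 891. The keratin KRT15 rose most (log2 fold change 1.18), and SERPINB3 (-1.23), SERPINB4 (-1.20) and KRT6A (-0.59) fell. SERPINB3 and SERPINB4 are close copies, so their reads may have been split.

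Of 11 regulators of the squamous or mesenchymal state 9 had a row, 1 was called higher and 1 lower, and their median was 0.17. The shares over all genes tested were 4.58% higher and 3.37% lower. The replicate block called 2 of the 9 regulators higher, where over all genes it called 1220 higher and 1143 lower. TP63, the master factor of basal and squamous epithelium, rose from 299 ± 15.9 to 650 ± 31.0 CPM (SD, n = 3 each, log2 fold change 1.12, standard error 0.07). SNAI1, a repressor of epithelial adhesion genes, fell from 10.6 ± 1.06 to 5.31 ± 0.676 CPM (SD, n = 3 each, log2 fold change -0.99, standard error 0.14). Among the 7 ductal epithelial markers with a row, KRT19 rose (log2 fold change 0.63) and EPCAM fell (-0.30), and the replicate block called 2 lower. The call of EPCAM was lost in 5 of the 6 fits that each left out 1 library.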

How the data were processed

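Libraries were made from mRNA with a stranded kit and read from both ends. After adaptor trimming, the authors used BWA for alignment to GRCh38 and featureCounts with the gene models of Ensembl 94. They deposited raw counts, and each of the 19469 genes exceeds 1 CPM in at least 2 libraries. Versions, strand and multi-mapping settings are not given in the sources used here. Symbols, positions and exon lengths came from GENCODE release 44, which matched 19344 identifiers.

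Groups came from the sample titles. Counts were analysed in R 4.3.3 with edgeR 4.0.16 (TMM factors, filterByExpr, quasi-likelihood test, Benjamini-Hochberg adjustment, threshold 0.05). Standard errors were obtained as the absolute log2 fold change over the root of the F statistic, and log2 CPM used a prior count of 2. As alternatives, single libraries were left out, replicate number entered as a block, DESeq2 1.42.0 replaced edgeR, scaling was by RLE, upper quartile or library size alone, and the low-count filter was dropped or set to at least 10 counts in every library. The deviations of samples with the same replicate number correlated over genes at 0.18, 0.12 and 0.43 (replicates 1, 2 and 3). L1high replicate 2 correlated better with L1low replicate 1 (0.21), and L1high replicate 1 reached 0.12 with L1low replicate 2. Only replicate 3 thus stood out as a pair, and the labels do not say what a number marks. The main fit left the libraries unpaired, and the replicate block was an alternative. No pair of libraries agreed within sampling noise (chi-square of at least 3.66 per degree of freedom).

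Named genes were the lineage factors, the sorting marker, their overlapping genes, the 4 largest called changes of each list, and for each factor the 3 genes with the highest correlation. Results of the list of other pancreatic and gut factors are given in part, and the rest are not reported here. CEL and LUM were named as called markers of other cell types. The members and lists were chosen with earlier results of these data known. The fit was tested on simulated data.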

Additional observations from a re-analysis of the deposited data

How the results depend on the processing

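The alternatives gave 572 values for 44 results, and 520 of these kept direction and side of the threshold or, for counts, stayed within 1.5 times. The log2 fold change of SOX9 stayed called in all fits. The number of lineage factors called higher was 0 without L1low replicate 2 and 1 in every other fit, and the number called lower was 1 in every fit. Without that library ELF3 kept its direction (0.39) but not its call. Over the fits that each left out 1 library, ELF3 ran from 0.33 to 0.45, KLF5 from -0.055 to 0.13 (-0.055, -0.02 and -0.03 without L1high replicate 3, L1low replicate 1 and L1low replicate 2), FOXA1 from -0.060 to 0.047 and GATA6 from 0.08 to 0.20, and the last 3 were not called in any of the fits. Over the same fits the number of genes called ran from 627 to 1473 (higher, 393 to 859, and lower, 234 to 614), and it was 674 (425 higher, 249 lower) without L1high replicate 1 and 627 (393 higher, 234 lower) without L1low replicate 2. The replicate block gave 2363 genes, 1220 higher and 1143 lower, and changed no call of a lineage factor. ENSG00000266283 ran from -0.22 to 0.23 and turned to 0.23 without L1high replicate 1 and to 0.07 without L1low replicate 1, ELF3-AS1 (highest 0.11) to -0.013 without L1high replicate 2, and FOXA1 to 0.03 without L1high replicate 2. The cause of these changes was not tested. Depth limits GATA6 most, with 95 to 120 counts per library, and genes without a row cannot be assessed.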
